A study of Mus musculus with 30 samples.

Results

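MCA-969 and MCA-970 are primary tumor cell lines, each derived from 1 fibrosarcoma induced in a mouse with the carcinogen 3-methylcholanthrene (MCA). Bulk RNA was compared between all 8 tumors whose titles start with MCA969 and all 6 whose titles start with MCA970, 14 of the 30 tumors sequenced. The study asked how NK cells and type 1 innate lymphoid cells act on such tumors, and sequenced tumors of 5 lines grown in wild-type or NK cell-deficient mice. For both lines the labels give the same strain, Ncr1Cre R26DTA on a C57BL/6 background, and growth in C57BL/6 mice, and the host of a single tumor is not stated. In that strain the promoter of Ncr1, the gene of the receptor NKp46, drives Cre, which switches on diphtheria toxin in NKp46+ cells. Age and sex of the animals were not used here. Hematopoietic cells had been depleted from each tumor cell suspension with CD45 beads before RNA extraction. This leaves the tumor cells and the CD45-negative cells around them, but some leukocyte RNA remained, as given further on. The labels call the MCA-970 tumors sensitive to NK cells, 6 MCA-969 tumors not sensitive, and the 2 others, MCA-969 W-1D and W-2D, sensitive. All 8 MCA-969 tumors were kept as 1 group, since the line was taken from the title. Titles also carry the letter W or a, which the labels do not explain. Each line is 1 clone or 1 tumor's mixture of clones, so a difference between the lines is one between these 2 tumors of origin and says nothing of a class of tumors. P-values weigh the difference between the lines against the spread between tumors of a line, estimated over all 5 lines together.

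The deposited values are reads counted per gene, 27745104 (MCA-970 W-2D) to 43696938 (MCA-970 a-2G) per tumor, and are given here as counts per 1000000 (CPM), scaled for library composition. Where a library held 0 counts, a level of up to 3 counts, or 0.0687 to 0.108 CPM by library, could have been missed, by counting error alone. CPM is not corrected for gene length, so it compares a gene between tumors and not one gene with another. Where 3 CPM values are given in a row they are the lowest, the median and the highest tumor of the line, with n = 8 for MCA-969 and n = 6 for MCA-970. A log2 fold change is MCA-969 minus MCA-970 and is followed by its standard error (SE). A gene was called at an edgeR adjusted p under 0.05 with a log2 fold change of at least 1 in either direction. Of 16862 genes tested, 10.7% were called higher in MCA-969 and 10.7% lower, against which every list below is read. Library runs were read here from blocks of library numbers, and neither the titles nor the column headers name a run. All 6 MCA-970 tumors came from the second of these runs and 6 of the 8 MCA-969 tumors from the first, with W-1D and W-2D in the second. The log2 fold change within the second run, 2 tumors against 6, is therefore given as "run 2" beside each value, and in that run 9.22% of 15936 genes were called higher and 8.21% lower. Between the runs within MCA-969, 6 of 16042 genes (0.0374%) were called, Gm17066, Gm23119, Klf13, Lrrc58, Mir703 and mt-Nd6, all lower in the second run. At an unadjusted edgeR p under 0.05 there were 2226, and with 2 tumors against 6 many shifts would go uncalled. These 2 tumors are also the MCA-969 tumors labelled sensitive, so run and label cannot be told apart. Of 130 called genes named below, 116 were called in run 2 too, 14 were not, and 0 changed direction. Correlations of log2 CPM were 0.96 to 0.991 within MCA-969, 0.978 to 0.994 within MCA-970 and 0.91 to 0.956 between the lines. MCA-970 W-1D and W-R carried more leukocyte RNA than the other tumors (the values follow with the immune genes), and list counts that lose calls without them are given both ways.

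Fibrosarcomas are tumors of mesenchymal cells, which make the collagens and proteoglycans of connective tissue and are held in place by matrix contacts more than by the keratin filaments, desmosomes and tight junctions that join epithelial cells. Mesenchymal cells also keep, through homeobox and other transcription factors, a record of the body region and germ layer from which they came. NK cells read a balance on such targets: MHC class I molecules, which present peptides on beta-2 microglobulin, hold NK cells back, and stress-induced ligands of NKG2D and DNAM-1 switch them on. Class I molecules and the machinery that loads them are raised by interferons, through factors of the IRF family among others that bind a short element with repeated GAAA.

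The sequences shown here are the stretches of promoter that hold this element in B2m, Isg15, Ifit3 and Rsad2, genes whose lower level in MCA-969 is described further on. The motif GAAANNGAAA was searched on both strands, where it reads TTTCNNTTTC on the opposite strand, in the 250 bases before the RefSeq start of each gene in build GRCm38.p6. Matches may overlap each other. Each line holds 30 bases, 5′ to 3′ on the gene's strand, with the match farthest from the start in capitals (of 1 match in the promoter of B2m, 3 in Isg15, 2 in Ifit3 and 1 in Rsad2, so that lower case can hold another): B2m at chr2:122147538-122147567 (plus strand), Isg15 at chr4:156200877-156200906 (minus strand), Ifit3 at chr19:34583363-34583392 (plus strand) and Rsad2 at chr12:26456553-26456582 (minus strand).
B2m: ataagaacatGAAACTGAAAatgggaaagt
Isg15: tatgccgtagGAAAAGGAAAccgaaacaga
Ifit3: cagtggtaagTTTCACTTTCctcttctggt
Rsad2: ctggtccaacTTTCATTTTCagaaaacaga
The motif was present in 936 of 27025 promoters of the table (3.46%) and in 381 of 11695 promoters of tested genes (3.26%). It was present in 79 of 1272 promoters of genes called lower in MCA-969 (6.21%). Among interferon-stimulated genes it stood in 7 of 13 promoters of those called lower (53.8%) and in 9 of 19 of those that were not (47.4%). Among MHC class I and peptide loading genes, 1 of 10 promoters of those called lower held it, that of B2m, and 2 of 11 of the others. A match is a run of letters and no measured binding site.

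Most of a set of epithelial genes were higher in the MCA-969 tumors, some of them, such as Krt8, near or at the detection limit in MCA-970 and others, such as Krt18, detected in both lines. Keratins of simple epithelia, desmosome and tight junction genes and the mesothelial gene Msln were higher, while the epithelial cadherin Cdh1 was at 1.53 CPM or less in every tumor of both lines. Of 22 epithelial junction genes tested, 19 were called higher and 2 lower, with a median log2 fold change of 2.20 against 0.03 over all genes (run 2: 14 higher and 0 lower of 20). Of 8 keratins tested, 6 were called higher and 1 lower, and the basal keratins Krt5 and Krt14 did not pass the count filter. Krt8 (chr15:101996698-102004482, GRCm38), a keratin of simple epithelia, was at 209, 371 and 625 CPM in MCA-969 and 0, 0.12 and 0.405 in MCA-970 (log2 fold change 11.44 ± 0.69, run 2 11.56, adjusted p = 6.05e-14). The lowest MCA-969 tumor, W-1D, lay far above the highest MCA-970 tumor, W-2D, and the ratio of the means was 2680.0. In the 16 tumors of the other 3 lines Krt8 reached 9.49 CPM at most. Krt18 (chr15:102028180-102032027), with which Krt8 forms filaments, was at 135, 226 and 557 CPM against 5.59, 7.42 and 10.2 (log2 fold change 5.06 ± 0.28, run 2 5.5, adjusted p = 1.34e-14). The tumors did not overlap, and MCA-969 W-2D was the highest. The mean of Krt18 was 3.03 CPM in MCA-943, 91.9 in MCA-948 and 0.636 in MCA-972. Krt7, another simple keratin, went the other way at low levels, 0.0304, 0.14 and 0.258 CPM against 0.305, 0.46 and 0.638 (log2 fold change -1.69 ± 0.34, run 2 -1.26, adjusted p = 9.95e-05). Msln, mesothelin, was at 21.7, 44.5 and 88.7 CPM in MCA-969, and all 6 MCA-970 libraries together held 2 counts of it, a ratio of 5290.0 with a counting interval of 1464 to 43680.0. The mean of Msln was 38.2 CPM in MCA-943, 14.9 in MCA-948 and 0.0655 in MCA-972. Of 5 mesothelial genes tested 3 were called higher and 1, Gpm6a, lower, the higher ones including Bnc1, the factor basonuclin 1, at 7.43, 21 and 23.6 CPM against 3.54, 5.31 and 7.25 (log2 fold change 1.8 ± 0.19, run 2 1.5, adjusted p = 3.99e-09), while the mesothelial genes Wt1, Upk3b and Calb2 did not pass the count filter.

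Among the junction genes, the plakin Ppl, which anchors keratins to desmosomes, was at 2.11, 3.17 and 14.5 CPM against 0, 0.146 and 0.179 (log2 fold change 5.56 ± 0.54, run 2 4.24, adjusted p = 8.19e-10). Pkp3, a plakophilin of the desmosome, was at 5.87, 6.52 and 9.41 CPM against 0.47, 0.671 and 1.29 (log2 fold change 3.21 ± 0.23, run 2 3.27, adjusted p = 2.03e-12). Dsp, desmoplakin, was at 0.743, 6.06 and 10.1 CPM against 0.397, 0.62 and 0.776 (log2 fold change 3.15 ± 0.47, run 2 1.7, adjusted p = 1.26e-06). Of these 3, Dsp alone overlapped between the lines, because MCA-969 W-2D, at 0.743 CPM, lay within the range of MCA-970. Cldn6, a tight junction claudin, was at 0.457, 0.879 and 1.45 CPM against 0, 0.0274 and 0.124 (log2 fold change 4.41 ± 0.50, run 2 5.02, adjusted p = 1.17e-08). Cdh3, P-cadherin, was at 8.33, 15.1 and 26.2 CPM against 0.58, 0.748 and 1.58 (log2 fold change 4.15 ± 0.32, run 2 4.23, adjusted p = 9.01e-12). The mean of Cdh3 was 13.4 CPM in MCA-943, 0.703 in MCA-948 and 0.949 in MCA-972. Epcam, an adhesion molecule of epithelia, was at 1.46, 4.83 and 9.25 CPM against 0.92, 1.55 and 1.93 (log2 fold change 1.74 ± 0.33, run 2 2.17, adjusted p = 5.47e-05), and the groups overlapped. The 2 members called lower were Cdh1, E-cadherin, at 0.0619, 0.321 and 0.635 CPM against 0.15, 0.794 and 1.53 (log2 fold change -1.36 ± 0.53, run 2 -1.39, adjusted p = 0.0280), and F11r, the junctional adhesion molecule A, at 3.02 to 9.05 CPM against 5.44 to 19.2 (log2 fold change -1.16 ± 0.35, run 2 -1.05, adjusted p = 0.00590). Both overlapped between the lines, and neither was called in run 2. Without MCA-970 W-1D and W-R the log2 fold change of Cdh1 was -0.65 and was not called, and leaving out MCA-969 a-R or MCA-970 W-1D, W-R or W-2D alone also ended its call. Without those 2 tumors 17 junction genes were called higher and 1 lower, of all genes 10.5% and 9.51%. Of 8 regulators of epithelial identity tested 5 were called higher and 0 lower. Grhl2, Spint1 and Trp63 were not called. Esrp1, Grhl1, Grhl3, Ovol1, Ovol2, Ehf, Rab25 and St14 did not pass the count filter. Esrp2, a splicing factor of epithelial cells, was at 0.457, 0.778 and 1.61 CPM against 0.029, 0.136 and 0.183 (log2 fold change 2.74 ± 0.34, run 2 3.27, adjusted p = 5.31e-08). Klf5, a Krüppel-like factor of proliferating epithelia, was at 22.2, 26.5 and 56.5 CPM against 8.62, 10.7 and 11.4 (log2 fold change 1.67 ± 0.24, run 2 1.75, adjusted p = 7.45e-07). For both factors the lowest MCA-969 tumor lay above the highest MCA-970 tumor.

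**Figure D1:**
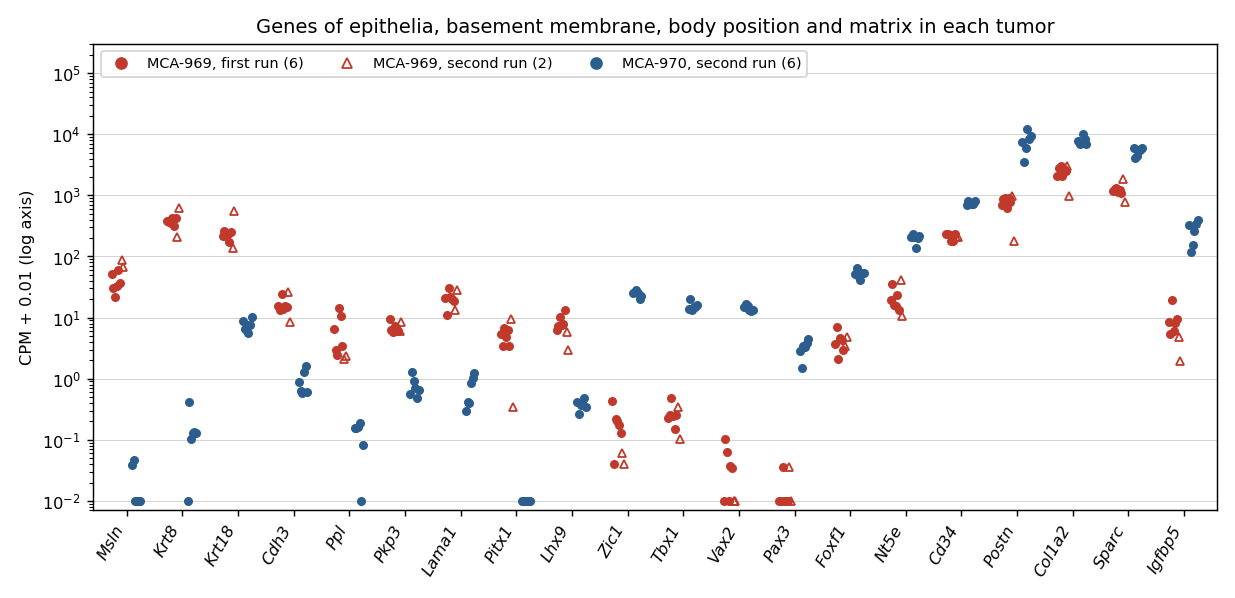
CPM plus 0.01 on a log axis for genes of epithelia, basement membrane, body position and matrix in each tumor. Circles are MCA-969 tumors of the first library run, open triangles the 2 MCA-969 tumors of the second run and blue circles MCA-970 tumors. For Krt8, Krt18, Msln, Vax2 and Zic1 the MCA-969 tumors of both runs stand apart from the MCA-970 tumors, which are all of the second run.

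Beside these genes both lines expressed the genes that define mesenchymal cells, as the label fibrosarcoma has it. Vim, vimentin, was at 4337, 4764 and 5260.5 CPM in MCA-969 and 2819, 3446 and 4068 in MCA-970, and Pdgfra, a growth factor receptor of fibroblasts, at 601, 804 and 917 and 647, 850.1 and 1068, and neither was called (log2 fold change 0.44 and -0.14). Of 25 mesenchymal identity genes 2 were called higher and 6 lower (median -0.40), and Prrx1 (0.62 ± 0.09), Twist1 (-0.23 ± 0.06) and Thy1 (-0.37 ± 0.21) were not called. The 6 lower genes included surface markers that stromal cells share with vessel walls. Nt5e, the ectonucleotidase CD73, was at 10.6, 17.9 and 40.8 CPM against 139.8, 207 and 230.2 (log2 fold change -3.19 ± 0.25, run 2 -2.94, adjusted p = 1.70e-11). Pdgfrb, a receptor of fibroblasts and pericytes, was at 55.4, 121 and 189.9 CPM against 354, 524 and 592 (log2 fold change -1.97 ± 0.20, run 2 -1.98, adjusted p = 1.39e-09). Cd34 was at 178, 214 and 235 CPM against 704, 739.8 and 809 (log2 fold change -1.83 ± 0.15, run 2 -1.86, adjusted p = 1.66e-11), and Eng, the TGF-beta co-receptor endoglin, at 12.2, 25.9 and 41.2 against 92.3, 116 and 131 (log2 fold change -2.12 ± 0.41, run 2 -2.23, adjusted p = 6.86e-05). None of these 4 overlapped between the lines, and all 4 were called in run 2. The 2 higher genes were Lum, the proteoglycan lumican, at 118, 428 and 769 CPM against 76.4, 107 and 135 (log2 fold change 1.95 ± 0.40, run 2 0.71, adjusted p = 1.34e-04), and S100a4 at 30.2, 37.7 and 92.2 against 8.95, 12.6 and 32 (log2 fold change 1.61 ± 0.28, run 2 2.34, adjusted p = 1.79e-05). Both overlapped, and Lum was not called in run 2. Of 19 contractile genes of smooth muscle and myofibroblasts 0 were called higher and 5 lower. Cnn1, calponin 1, was at 1.18, 3.27 and 4.85 CPM against 7.76, 33 and 39.4 (log2 fold change -3.14 ± 0.28, run 2 -3.18, adjusted p = 1.77e-10), with no overlap. Acta2, smooth muscle actin, was at 32.9, 99.5 and 182 CPM against 101, 241 and 299 (log2 fold change -1.02 ± 0.34, run 2 -1.19, adjusted p = 0.0113), overlapped, and was not called in run 2. Leaving out MCA-969 W-2G, W-R, a-2D, a-R or W-2D, or MCA-970 a-1D, a-2D or a-2G, also ended this call.

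Collagens of connective tissue fibers were lower in MCA-969, and the laminin chain genes Lama1 and Lama3 were higher. Of 8 fibrillar collagen genes 0 were called higher and 7 lower, with a median log2 fold change of -1.69 (run 2: 0 and 8). Col1a2, the second chain of type I collagen, was at 977, 2636 and 3068 CPM against 6839, 7433 and 9940.0 (log2 fold change -1.7 ± 0.24, run 2 -1.97, adjusted p = 5.13e-07). Col3a1, the chain of type III collagen, was at 1484, 3759 and 3956 CPM against 7293, 10389 and 12111 (log2 fold change -1.6 ± 0.15, run 2 -1.96, adjusted p = 3.34e-10). Col5a2, which joins in type V collagen and helps to start fibrils, was at 353, 767 and 1009.8 CPM against 2145, 2639 and 3109.9 (log2 fold change -1.88 ± 0.18, run 2 -1.95, adjusted p = 4.83e-10). For these 3 genes every MCA-969 tumor lay below every MCA-970 tumor, and MCA-969 W-2D was the lowest. Col1a1, the other chain of type I collagen, was the exception at 778, 2691 and 3569.6 CPM against 3279.5, 4956 and 6775 (log2 fold change -0.93 ± 0.23, run 2 -1.47, adjusted p = 0.00121), short of the threshold on the fold in all tumors and called in run 2. Of 20 basement membrane collagens and laminins 5 were called higher and 5 lower. Lama3, a laminin chain that helps to tie epithelial cells to their basement membrane, was at 8.33, 12.3 and 16.3 CPM against 1.86, 2.71 and 4.31 (log2 fold change 2.2 ± 0.20, run 2 2.23, adjusted p = 2.84e-10). Lama1, the alpha chain of laminin 111, was at 11, 20.8 and 30.8 CPM against 0.29, 0.621 and 1.21 (log2 fold change 4.87 ± 0.39, run 2 4.91, adjusted p = 1.79e-11). Lama4, a laminin chain of vessels and mesenchyme, ran the other way at 39.8, 109 and 187 CPM against 423, 498 and 543 (log2 fold change -2.12 ± 0.28, run 2 -2.08, adjusted p = 2.18e-07), as did Col4a1, a chain of type IV collagen, at 326, 601 and 859 against 922, 1321 and 1638 (log2 fold change -1.15 ± 0.42, run 2 -1.25, adjusted p = 0.0182). In these 4 genes the tumors of the lines did not overlap.

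Of 34 matricellular proteins and proteoglycans 3 were called higher and 11 lower (median -0.58). Postn, periostin, a matrix protein of activated fibroblasts, was at 179, 831 and 963 CPM in MCA-969 and 3463, 7945 and 12405 in MCA-970 (log2 fold change -3.4 ± 0.32, run 2 -3.77, adjusted p = 6.72e-10). Tnc, tenascin C, was at 710.5, 1795 and 2165 CPM against 4419, 8293 and 10423 (log2 fold change -2.19 ± 0.28, run 2 -2.53, adjusted p = 1.01e-07). Sparc, a collagen-binding protein, was at 779, 1206 and 1879.6 CPM against 4017, 5510.1 and 5947 (log2 fold change -2.08 ± 0.14, run 2 -1.96, adjusted p = 6.66e-13). The lowest MCA-970 tumor lay above every MCA-969 tumor for each of them, by the widest margin for Postn. Has1, a hyaluronan synthase, was the opposite at 45.9, 76.9 and 186 CPM against 7.72, 14.7 and 22.1 (log2 fold change 2.62 ± 0.32, run 2 3.02, adjusted p = 5.02e-08), and Hapln1, which links hyaluronan to proteoglycans, was at 3.97, 15.2 and 25 against 0.169, 0.245 and 0.538 (log2 fold change 5.55 ± 0.41, run 2 4.32, adjusted p = 3.07e-12). Among 34 matrix proteases 3 were called higher and 10 lower. Mmp14, a membrane-bound collagenase, was at 421, 594 and 713 CPM against 1396, 1515 and 1646 (log2 fold change -1.34 ± 0.10, run 2 -1.51, adjusted p = 6.64e-12), and Mmp9, a gelatinase, at 19.1, 52 and 82.7 against 161, 185 and 339 (log2 fold change -1.99 ± 0.23, run 2 -2.41, adjusted p = 1.80e-08). Serpine2, an inhibitor of serine proteases, was at 5.42, 24.6 and 88.2 CPM against 269.7, 301 and 345 (log2 fold change -3.34 ± 0.39, run 2 -3.79, adjusted p = 2.26e-08). None of the 3 overlapped. Of 23 classical cadherins and protocadherins 1 was called higher and 13 lower (median -1.21), among them Cdh11 of mesenchymal cells. Cdh3 and Cdh15, called higher, and Cdh1, called lower, were counted in the junction and muscle regulator lists and not here. Of 12 cartilage genes tested 4 were called higher and 2 lower, and of 14 bone genes 5 and 2, with no common direction. Col11a1, a fibrillar collagen of cartilage, was at 1.08, 19.6 and 54.6 CPM against 221, 303 and 517 (log2 fold change -3.63 ± 0.54, run 2 -3.51, adjusted p = 1.37e-06), and Col2a1, the main collagen of cartilage, at 0.0552 to 0.446 against 0.519 to 1.02 (log2 fold change -1.49 ± 0.31, run 2 -1.6, adjusted p = 1.52e-04). Runx2, the regulator of bone formation, was at 58.5, 79.5 and 88.8 CPM against 79.7, 90.2 and 99.1, which was not called (log2 fold change -0.2 ± 0.07). Sp7, which acts after Runx2, was at 0.124 to 3.1 CPM against 0.0726 to 0.508 (log2 fold change 2.12 ± 0.54, run 2 1.46, adjusted p = 0.00130), overlapped, and was not called in run 2, while Ibsp, bone sialoprotein, was at 0 to 0.152 against 0.359 to 2.09 (log2 fold change -3.63 ± 0.59, run 2 -3.67, adjusted p = 5.30e-06).

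**Figure D2:**
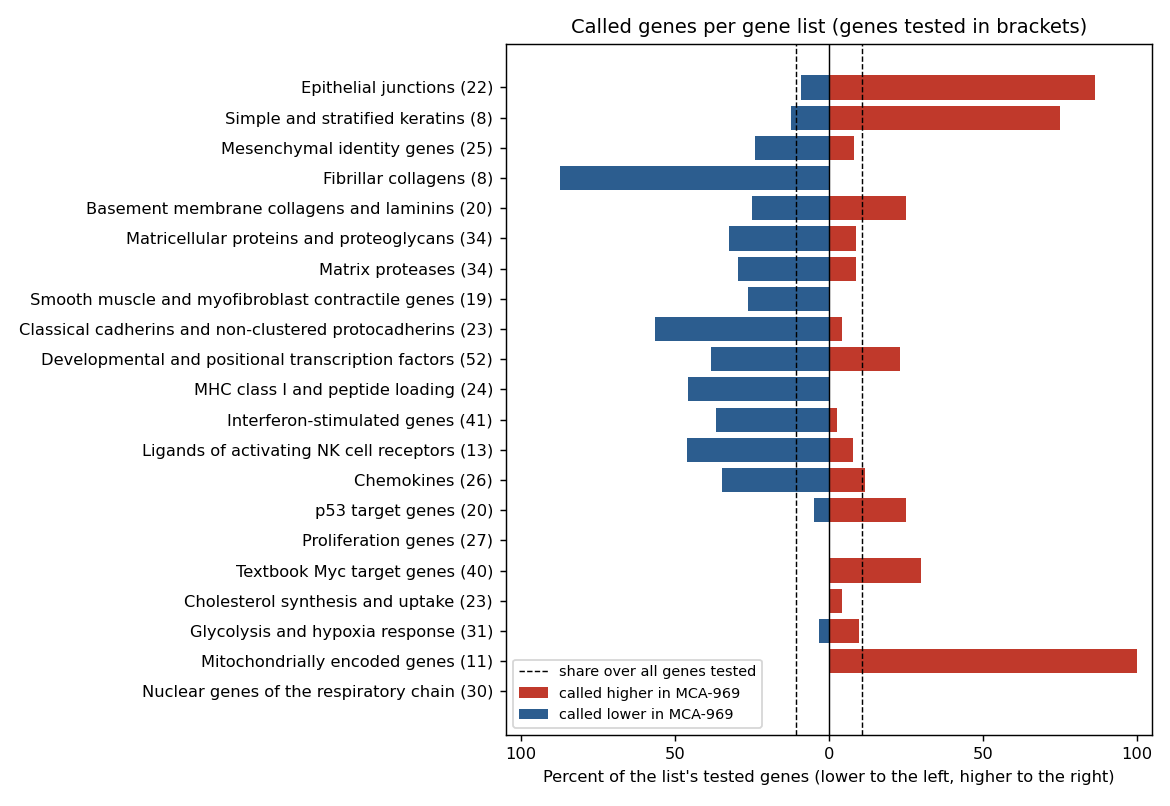
Percent of the tested genes that were called higher (right) or lower (left) in MCA-969. Dashed lines mark 10.7%, the share called over all 16862 genes in each direction. Of the lists plotted, mitochondrially encoded genes and epithelial junctions reach furthest to the right, and fibrillar collagens furthest to the left.

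Transcription factors that mark body position differed in both directions, several between a clear level and none. Of 52 developmental and positional factors tested 12 were called higher and 20 lower (run 2: 7 and 14 of 50), and for 24 of the 52 the lines did not overlap, 8 higher and 16 lower, against 14.5% and 14.6% of all genes. Vax2 (chr6:83711264-83738313), a homeobox factor of the ventral eye, was at 0, 0.012 and 0.0913 CPM in MCA-969 and 12.6, 14 and 16.6 in MCA-970 (log2 fold change -9.05 ± 0.38, adjusted p = 4.18e-16). Its run 2 value is not given, since both MCA-969 tumors of that run had 0 counts and it would rest on the prior count. Zic1 and Zic4 are adjacent zinc finger genes of neural and dorsal somite tissue. Zic1 was at 0.0304, 0.144 and 0.414 CPM against 20.4, 25.3 and 28.1 (log2 fold change -7.29 ± 0.39, run 2 -9.06, adjusted p = 5.84e-15), and Zic4 at 0, 0 and 0.0557 against 0.957, 1.32 and 1.91 (log2 fold change -6.35 ± 0.42, run 2 -6.28, adjusted p = 2.31e-13). Tbx1, a T-box factor of the pharyngeal region, was at 0.0929, 0.238 and 0.472 CPM against 13.3, 14.9 and 19.9 (log2 fold change -5.93 ± 0.22, run 2 -6.08, adjusted p = 1.28e-17). Hand2, of limb, branchial arch and heart, was at 0, 0.0894 and 0.464 CPM against 4.67, 6.06 and 7.16 (log2 fold change -5.31 ± 0.43, run 2 -4.59, adjusted p = 5.77e-11). For these 5 genes every MCA-969 tumor was at 0.472 CPM or less, and every MCA-970 tumor lay above it. Foxf1, a factor of visceral mesoderm, was at 2.1, 4.01 and 7.09 CPM against 41.1, 53.2 and 64.8 (log2 fold change -3.66 ± 0.17, run 2 -3.65, adjusted p = 1.92e-16), and Msx1, of limb and facial mesenchyme, at 0.12, 0.517 and 1.61 against 6, 8.02 and 12.5 (log2 fold change -3.77 ± 0.37, run 2 -4.03, adjusted p = 8.17e-10). Lhx2, a LIM homeobox factor, was at 0, 0 and 0.0913 CPM against 0.957, 1.4 and 1.81 (log2 fold change -6.09 ± 0.54, adjusted p = 9.48e-11), while its relatives Lhx8 and Lhx9 ran the other way. Lhx2 too had 0 counts in both MCA-969 tumors of run 2, so no run 2 value is given. Lhx8 was at 2.63, 6.52 and 14.7 CPM against 0.186, 0.319 and 0.46 (log2 fold change 4.49 ± 0.46, run 2 4.39, adjusted p = 2.33e-09), and Lhx9 at 2.94, 7.28 and 13.4 against 0.258, 0.378 and 0.47 (log2 fold change 4.35 ± 0.36, run 2 3.58, adjusted p = 2.09e-11). Pitx1, a factor of the hindlimb and the first branchial arch, was at 0.34, 5.08 and 9.59 CPM in MCA-969 and had 0 counts in all 6 MCA-970 libraries, at least 56.4-fold higher with 3 counts per library as the floor (log2 fold change not given, since it would rest on the prior count). It had 0 counts in the 16 tumors of the other 3 lines too. Dlx2, of the branchial arches, was at 2.48, 7.81 and 13.9 CPM against 0.725, 1.03 and 1.21 (log2 fold change 3.02 ± 0.28, run 2 2.75, adjusted p = 2.25e-10), and Gata4, of heart and visceral organs, at 0.504, 1.92 and 5.27 against 0.0621, 0.137 and 0.242 (log2 fold change 4.02 ± 0.66, run 2 4.45, adjusted p = 1.01e-05). Sox2, a factor of pluripotent and neural cells, was at 2.89, 13.8 and 28.3 CPM against 0.0299, 0.0532 and 0.515 (log2 fold change 7.0 ± 0.55, run 2 6.29, adjusted p = 4.86e-11). En1, of dorsal dermis among other tissues, was at 8.33, 9.52 and 12.7 CPM against 7.62, 8.31 and 9.12 and was not called (log2 fold change 0.27 ± 0.09).

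In the Hox clusters, gene order along the chromosome follows the body axis, and a difference between clusters was not tested. Of 7 Hoxc genes 0 were called higher and 3 lower, of 8 Hoxb genes 0 and 1, of 10 Hoxa genes 3 and 1, and of 5 Hoxd genes 2 and 0. Hoxc11 was at 0, 0.0251 and 0.0774 CPM in MCA-969 against 2.84, 3.26 and 4.11 (log2 fold change -6.66 ± 0.40, run 2 -6.21, adjusted p = 4.65e-14). Hoxc10 was at 1.08, 9.78 and 25.4 CPM against 59.7, 64.2 and 69.3 (log2 fold change -2.65 ± 0.34, run 2 -2.25, adjusted p = 1.64e-07), and Hoxc9 at 2.79, 6.6 and 17.2 against 31.2, 35.6 and 40.1 (log2 fold change -2.29 ± 0.25, run 2 -1.81, adjusted p = 1.00e-08). These neighbors in the cluster were lower in every MCA-969 tumor than in any MCA-970 tumor, though Hoxc10 was not called in run 2, whose MCA-969 tumors were at 1.08 and 25.4 CPM. Hoxa10 was at 9.37, 13.4 and 15.6 CPM against 23.5, 30 and 32.4 (log2 fold change -1.12 ± 0.17, run 2 -1.06, adjusted p = 1.28e-06). Muscle regulators were scarce, with 1 of 8 tested called higher and 2 lower, and Myod1 did not pass the count filter. Pax3, of the dermomyotome and neural crest, was at 1.47, 3.33 and 4.38 CPM in MCA-970, and all 8 MCA-969 libraries together held 2 counts, a ratio of 451 with a counting interval of 124 to 3733. Eya1, which acts with Pax3 and related developmental factors, was at 0, 0.109 and 0.446 CPM against 2.76, 3.95 and 4.85 (log2 fold change -4.38 ± 0.42, run 2 -4.18, adjusted p = 5.25e-10).

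The genes with the largest changes in either direction had varied roles. Slc5a7, the choline transporter of cholinergic nerve endings, was at 4.81, 19.4 and 30.9 CPM in MCA-969 and 0, 0 and 0.179 in MCA-970 (log2 fold change 8.51 ± 0.56, run 2 8.54, adjusted p = 2.09e-11). Dynap, a dynactin-associated protein, was at 8.19, 18.4 and 27.7 CPM against 0, 0.0121 and 0.0932 (log2 fold change 9.28 ± 0.49, run 2 9.55, adjusted p = 4.97e-15). Wasf3, which drives actin assembly, was at 1.73, 8.24 and 11.9 CPM, and the MCA-970 libraries held 1 count in all, a ratio of 1644 with a counting interval of 295 to 64970.0. Glt1d1, a glycosyltransferase-like gene, was at 11.4, 14.8 and 16.9 CPM, against 3 counts in all MCA-970 libraries, a ratio of 1058 with a counting interval of 362 to 5134. Mt3, a brain metallothionein (log2 fold change 6.51 ± 0.47, run 2 7.07, adjusted p = 1.58e-12), Xlr, an X-linked gene (log2 fold change 5.99 ± 0.46, run 2 6.58, adjusted p = 6.82e-12), and Mab21l1, a developmental gene that shares exonic bases with Nbea (log2 fold change 7.77 ± 0.48, run 2 8.04, adjusted p = 3.73e-13), were also higher, each in all 8 tumors. Tdrd1, a tudor-domain protein of male germ cells, was at 0, 0.0118 and 0.0786 CPM in MCA-969 and 7.4, 9.53 and 10.4 in MCA-970 (log2 fold change -8.44 ± 0.43, run 2 -9.02, adjusted p = 1.73e-15). Musk, the receptor kinase of the neuromuscular junction, was at 0, 0.0748 and 0.223 CPM against 3.94, 6.01 and 8.39 (log2 fold change -5.86 ± 0.38, run 2 -6.16, adjusted p = 1.49e-13). Aplp1, a relative of the amyloid precursor protein, was at 0.276, 0.456 and 1 CPM against 16.9, 24.7 and 30 (log2 fold change -5.65 ± 0.46, run 2 -5.86, adjusted p = 2.49e-11). Chsy3, a chondroitin sulfate synthase (log2 fold change -5.09 ± 0.39, run 2 -5.8, adjusted p = 6.07e-12), and Stmn4, a stathmin of neurons (log2 fold change -5.07 ± 0.43, run 2 -4.74, adjusted p = 4.37e-11), were lower in all 8 tumors. Pcdhga3 was lower too (log2 fold change -5.37 ± 0.31, run 2 -5.01, adjusted p = 1.56e-14), but its exons overlap those of Pcdhgc5, Pcdhgc4 and Pcdhga10, and its count is uncertain. Tnfrsf4, the receptor OX40, chosen after its values were seen, was at 14.5, 20.8 and 45.7 CPM against 0.294, 0.471 and 0.581 (log2 fold change 5.64 ± 0.29, run 2 6.04, adjusted p = 1.99e-15).

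Myc, the growth-promoting transcription factor, and the genes on both sides of it were higher in MCA-969 than in MCA-970, while the tested genes next to this stretch on both sides were not called. The other genes of this stretch were chosen after their values were seen. Myc (chr15:61985391-61990374, GRCm38) was at 735, 907 and 2799 CPM in MCA-969 and 103, 133 and 168 in MCA-970 (log2 fold change 3.3 ± 0.36, run 2 3.75, adjusted p = 6.63e-09). The highest MCA-969 tumors were W-R at 2799 and W-2D at 2317 CPM, and the other 6 were at 735 to 1244. Pvt1, a long noncoding RNA gene downstream of Myc (chr15:62037986-62378096), was at 419, 504 and 1359 CPM against 10.3, 14.1 and 16.8 (log2 fold change 5.46 ± 0.28, run 2 6.08, adjusted p = 1.99e-15), and W-2D was the highest. Fam84b, upstream of Myc (chr15:60818994-60853778), was at 36.8, 66.6 and 189 CPM against 7.73, 10.5 and 13.8 (log2 fold change 3.05 ± 0.31, run 2 3.52, adjusted p = 1.62e-09). The noncoding gene 9930014A18Rik was at 32.7, 54.3 and 154 CPM against 1.2, 1.62 and 1.94 (log2 fold change 5.44 ± 0.36, run 2 5.86, adjusted p = 3.29e-13), but it shares 2474 exonic bases with Fam84b on the other strand, and without a stated strand setting the reads of this pair cannot be told apart. These 4 genes were adjacent among the tested genes and span 1559 kb, and no tumor overlapped between the lines for any of them. Trib1, next to them on one side, was at 119, 173 and 584 CPM against 183, 235 and 317 (log2 fold change -0.05 ± 0.34), a difference whose sign turned in run 2 (0.07). Fam49b, on the other side, was at 56, 62.6 and 91.1 CPM against 83.4, 93.3 and 104 (-0.51 ± 0.08), and neither was called, while Adcy8 further out was called lower (-4.38). In the other 3 lines the mean of Myc was 164.5 CPM in MCA-943, 816 in MCA-948 and 167 in MCA-972, that of Pvt1 25, 243 and 18, and that of Fam84b 6.84, 6.10 and 5.75. Fam84b was thus high in MCA-969 alone of the 5 lines, as its lowest MCA-969 tumor, 36.8 CPM, lay above every other tumor. Mycn, the neural relative of Myc, was at 1.02, 1.54 and 3.28 CPM against 3.82, 4.87 and 5.08 (log2 fold change -1.37 ± 0.25, run 2 -0.91, adjusted p = 2.45e-05), and was not called in run 2.

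**Figure D3:**
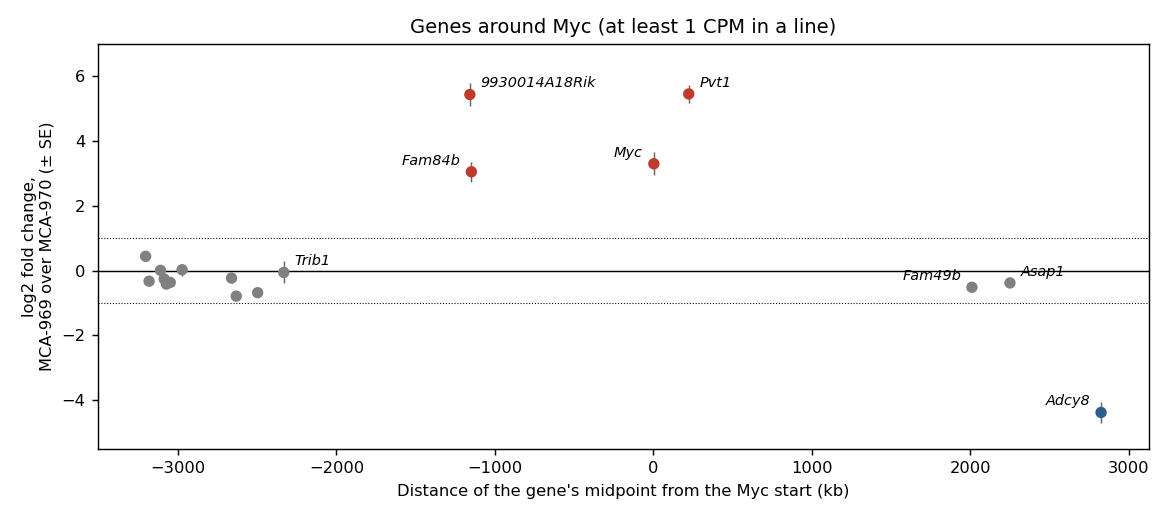
Log2 fold change between the lines (MCA-969 minus MCA-970) with its SE (vertical axis) for tested genes around Myc, by distance of the gene's midpoint from the start of Myc in kb (horizontal axis). Fam84b, 9930014A18Rik, Myc and Pvt1 lie between 3.05 and 5.46, and the genes next to them lie near 0.

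Of 40 textbook Myc target genes, a list written after values were seen, 12 were called higher and 0 lower, with a median log2 fold change of 0.78 (run 2: 19 and 0). Without MCA-970 W-1D and W-R 9 were called higher and 1 lower. Of 27 proliferation genes 0 were called in either direction, with a median of 0.29, 20 above 0 and 7 below. Mki67, the proliferation antigen Ki-67, was at 148, 243 and 283 CPM against 97, 121 and 143 (log2 fold change 1.0 ± 0.11, run 2 1.06, adjusted p = 5.48e-09), just short of the threshold on the fold and without overlap. Ccnd2, cyclin D2, was at 163, 286 and 372 CPM against 72.5, 94.2 and 109.6 (log2 fold change 1.58 ± 0.21, run 2 1.0, adjusted p = 1.71e-07). Trp53 (chr11:69580359-69591873), the gene of p53, was at 117, 141 and 179 CPM in MCA-969 and 21, 23.9 and 29.6 in MCA-970 (log2 fold change 2.51 ± 0.26, run 2 2.66, adjusted p = 3.41e-09), with no overlap. Its mean was 112 CPM in MCA-943, 2.15 in MCA-948 and 93.6 in MCA-972, so MCA-969 lay with MCA-943 and MCA-972. Wrap53, which starts next to Trp53 on the other strand and was chosen after its values were seen, was at 9.34, 11.4 and 15.5 CPM against 14.2, 15.9 and 18.1 and was not called (-0.45 ± 0.09). Of 20 p53 target genes 5 were called higher and 1 lower (median 0.26), namely Aen, Bbc3, Ccng1, Eda2r and Perp higher and Ddit4l lower. Ccng1, cyclin G1, was at 69.9, 95.9 and 121 CPM against 43.5, 47.9 and 51.5 (log2 fold change 1.04 ± 0.09, run 2 0.9, adjusted p = 1.11e-10), under the threshold on the fold in run 2 and, at 0.99, without MCA-969 a-R. The cell cycle inhibitor Cdkn1a was at 33.9, 50.2 and 116 CPM against 50.8, 62.3 and 83 (-0.18 ± 0.23), and Mdm2, the ligase that degrades p53, at 64.3, 77.2 and 103 against 44.7, 49.8 and 60.8 (0.68 ± 0.09), and neither was called. Cdkn2a, which encodes p16 and p19Arf, was at 431, 508 and 622 CPM against 573, 642 and 678 and was not called (-0.32 ± 0.22).

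Growth factor genes differed one by one, with few shared directions within a family. Of 12 EGF family genes 5 were called higher and 1 lower, of 14 FGF genes 4 and 1, and of 41 other receptor kinases and their ligands 6 and 9. Areg, the EGF receptor ligand amphiregulin, was at 26.3, 58 and 162 CPM against 7.12, 9.46 and 21.3 (log2 fold change 2.65 ± 0.38, run 2 3.02, adjusted p = 7.75e-07), while Egfr, its receptor, was lower at 20.4, 32.6 and 60.2 against 60.8, 99 and 124 (log2 fold change -1.46 ± 0.20, run 2 -1.53, adjusted p = 4.67e-07). Kit, the receptor of stem cell factor, was at 36.9, 79.2 and 143 CPM against 3.36, 8.53 and 12.6 (log2 fold change 3.29 ± 0.46, run 2 3.71, adjusted p = 5.59e-07). Fgfr2, an FGF receptor, was at 5.28, 8.84 and 13.5 CPM against 1.25, 1.8 and 4.78 (log2 fold change 2.08 ± 0.30, run 2 1.9, adjusted p = 1.03e-06). None of these 4 overlapped between the lines. Met, the receptor of hepatocyte growth factor, was at 73.1, 172 and 1626 CPM against 93.5, 106 and 118 (log2 fold change 1.71 ± 0.46, run 2 3.01, adjusted p = 0.00217). The call for Met rested on 1 tumor: MCA-969 W-1D was at 1626 CPM and the other 7 at 73.1 to 315, and without W-1D the log2 fold change was 0.66 and was not called. Igf1r, the receptor of insulin-like growth factors, was at 143, 201 and 232 CPM against 52.8, 64.6 and 76.6 (log2 fold change 1.6 ± 0.11, run 2 1.23, adjusted p = 8.67e-13), and Igfbp5, which binds those factors, at 1.95, 7.05 and 19.4 against 119.8, 292 and 396 (log2 fold change -5.06 ± 0.62, run 2 -6.27, adjusted p = 6.39e-08). Dlk1, an imprinted gene and inhibitor of adipocyte differentiation, was at 1124, 1359 and 1575 CPM against 33.7, 62.3 and 212 (log2 fold change 4.03 ± 0.37, run 2 3.79, adjusted p = 2.38e-10), with no overlap. Of 19 imprinted genes 3 were called higher and 8 lower, the latter including Mest, Grb10 and Nnat. Of 19 ephrins and their receptors 3 were called higher and 8 lower (median -0.95), and for 14 of them the lines did not overlap, 3 higher and 11 lower (against 14.5% and 14.6% of all genes). Of 31 semaphorins, netrins and Slits, which like ephrins guide cell movement, 4 were called higher and 8 lower. Of 16 Wnt ligands and R-spondins 5 were called higher (Rspo4, Wnt10a, Wnt10b, Wnt16 and Wnt6) and 2 lower (Rspo2 and Rspo3), of 17 Wnt receptors 2 and 3, of 9 antagonists 3 and 2, and of 9 Wnt target genes 3 and 1. Of 19 ligands of the TGF-beta family 5 were called higher and 2 lower, of 14 receptors 3 and 1, of 14 antagonists 2 and 3, and of 12 target genes 0 and 2.

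MHC class I genes, their peptide transporters and many interferon-stimulated genes were lower in MCA-969. Of 24 MHC class I and peptide loading genes 0 were called higher and 11 lower, with a median log2 fold change of -0.96 (run 2: 0 and 12 of 23), and the summed level of the list was 3941 to 5947 CPM in MCA-969 and 8165 to 11044 in MCA-970. Without MCA-970 W-1D and W-R the count was 0 and 11. Among tumors of letter a alone it was 0 and 10, where of all 15550 genes tested 1609 were called higher and 1604 lower. H2-K1 (chr17:33996017-34000347), a classical class I heavy chain, was at 250.2, 339 and 367 CPM against 738, 1023 and 1449.7 (log2 fold change -1.64 ± 0.17, run 2 -1.55, adjusted p = 2.81e-09). H2-D1, the other classical heavy chain of this strain, was at 328, 428 and 535 CPM against 966, 1312 and 1964 (log2 fold change -1.61 ± 0.13, run 2 -1.42, adjusted p = 3.33e-11). B2m, the light chain they share, whose promoter window is shown above, was at 701, 816 and 1157 CPM against 1592, 2047 and 2518 (log2 fold change -1.2 ± 0.11, run 2 -1.06, adjusted p = 4.42e-10). For these 3 genes every MCA-969 tumor lay below every MCA-970 tumor. The nonclassical genes H2-Q4, H2-Q6 and H2-Q7 are near-identical copies whose reads may be split between them, and their counts are uncertain. H2-Q4 was at 44.8, 66.9 and 89.7 CPM against 208, 271 and 511 (log2 fold change -2.17 ± 0.25, run 2 -2.25, adjusted p = 2.45e-08), H2-Q6 at 4.97, 13.2 and 26.4 against 118, 162 and 384 (log2 fold change -3.74 ± 0.31, run 2 -4.17, adjusted p = 2.98e-11), and H2-Q7 at 7.65, 14.8 and 24.7 against 63.9, 92.9 and 183 (log2 fold change -2.77 ± 0.26, run 2 -2.78, adjusted p = 4.93e-10). Tap2, a subunit of the transporter that moves peptides to class I molecules, was at 2.57, 6.64 and 9.34 CPM against 14.2, 21.4 and 40.8 (log2 fold change -1.92 ± 0.26, run 2 -2.31, adjusted p = 3.94e-07), and its partner Tap1 at 11.1, 17.8 and 30.9 against 27.8, 37.6 and 96.7 (log2 fold change -1.35 ± 0.28, run 2 -1.62, adjusted p = 1.71e-04), where the highest MCA-970 tumor was W-2D. Without that tumor Tap1 fell short of the fold threshold at -0.99. Psmb8, an immunoproteasome subunit, was at 5.52, 9.81 and 17.9 CPM against 19.8, 32.5 and 60.3 (log2 fold change -1.72 ± 0.25, run 2 -1.85, adjusted p = 1.38e-06). H2-T23, which presents leader peptides to the inhibitory NK receptor NKG2A, was at 17.3, 23.9 and 29.7 CPM against 15.5, 19.7 and 35.7 and was not called (0.14 ± 0.19). Nlrc5, the transactivator of class I genes, was at 18.5, 28.5 and 41.1 CPM against 20.6, 22.7 and 35.5 and was not called (0.21 ± 0.19).

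Of 41 interferon-stimulated genes 1 was called higher and 15 lower, with a median of -0.76 (run 2: 1 and 16; without MCA-970 W-1D and W-R: 1 and 15). Among tumors of letter a alone 1 was called higher and 8 lower, where of all 15550 genes tested 1609 were called higher and 1604 lower. Isg15, a ubiquitin-like protein, was at 3.87, 9.78 and 17.5 CPM against 18.9, 23 and 36.2 (log2 fold change -1.4 ± 0.30, run 2 -1.95, adjusted p = 2.17e-04). Usp18, which removes Isg15 from proteins, was at 2.07, 5.98 and 11.8 CPM against 12.1, 21.9 and 26.8 (log2 fold change -1.8 ± 0.32, run 2 -2.35, adjusted p = 2.52e-05). Rsad2, the antiviral enzyme viperin, was at 1.55, 12.1 and 18.8 CPM against 20.2, 28.4 and 78.9 (log2 fold change -1.63 ± 0.47, run 2 -2.56, adjusted p = 0.00357). In these 3 genes the lines did not overlap, and MCA-969 W-2D was the lowest tumor for Rsad2 and MCA-970 W-2D the highest. Ifit3, an RNA-binding antiviral protein, was at 1.92, 10 and 17.4 CPM against 11.9, 19.7 and 36.5 (log2 fold change -1.17 ± 0.41, run 2 -1.8, adjusted p = 0.0147), overlapped, and without MCA-970 W-2D was at -0.96 and not called. Promoter windows of Isg15, Rsad2 and Ifit3 are shown above. The factor Irf1, which carries interferon signals, was at 98 to 223 CPM against 171 to 271 and was not called (-0.33 ± 0.18). Mndal, of the Ifi200 cluster of DNA sensors, was at 2.63, 5.63 and 9.62 CPM against 35, 37.2 and 42.8 (log2 fold change -2.64 ± 0.26, run 2 -2.86, adjusted p = 1.08e-09), and Trim30a, of an interferon-inducible Trim cluster, at 1.08, 2.5 and 6.06 against 8.34, 9.21 and 13 (log2 fold change -1.69 ± 0.31, run 2 -2.47, adjusted p = 3.60e-05); both were chosen after their values were seen.

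**Figure D4:**
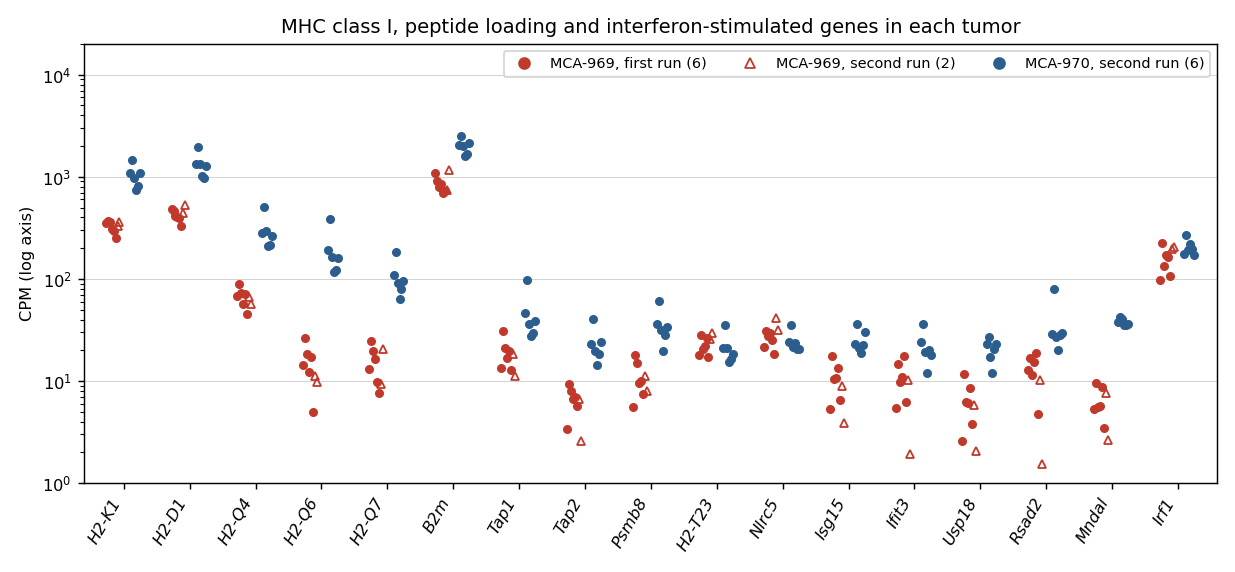
CPM on a log axis of MHC class I and interferon-stimulated genes in each tumor, with symbols as in the plot of identity genes. H2-K1, H2-D1 and B2m do not overlap between the lines, while H2-T23 and Nlrc5 do.

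Ligands of activating NK receptors differed less evenly. Of 13 tested 1 was called higher and 6 lower (run 2: 2 and 3; without MCA-970 W-1D and W-R: 0 and 6), of which Cd48, Cd86 and Icam2 are also genes of leukocytes or endothelium. Raet1d, a ligand of NKG2D, was at 0.34, 0.807 and 1.86 CPM in MCA-969 and 1.44, 4.85 and 7.39 in MCA-970 (log2 fold change -2.38 ± 0.37, run 2 -2.04, adjusted p = 2.62e-06), overlapped, and was not called in run 2. Raet1e and Raet1d share a locus and their reads may be split between them. The NKG2D ligands Raet1e (-0.82 ± 0.33) and Ulbp1 (-0.18 ± 0.11) and the DNAM-1 ligand Pvr (-0.28 ± 0.12) were not called, and their tumors overlapped between the lines, Ulbp1 at 20.5 to 28.5 CPM against 24.1 to 32.3 and Pvr at 58.4 to 94.6 against 66.7 to 122. Vcam1, an integrin ligand of activated stroma and endothelium, was at 59.4, 72.6 and 103 CPM against 155, 174 and 220.4 (log2 fold change -1.25 ± 0.13, run 2 -1.08, adjusted p = 4.24e-09). Icam1, the ligand of the integrin LFA-1, was higher at 20.1, 32.1 and 56 CPM against 10.6, 15.1 and 23.6 (log2 fold change 1.09 ± 0.26, run 2 1.45, adjusted p = 5.97e-04), overlapped, and lost the call without MCA-970 W-1D or without MCA-969 W-2D (0.96). Of 20 checkpoint and inhibitory molecules 3 were called higher, Arg1 and Ido1 among them, and 4 lower. Cd200, which inhibits myeloid cells, was at 5.7, 8.63 and 19.8 CPM against 20.8, 28.5 and 36 (log2 fold change -1.5 ± 0.39, run 2 -2.16, adjusted p = 0.00152), and Cd274, the ligand PD-L1, at 0.99, 4.25 and 6.33 against 3.89, 5.53 and 14.3, not called (-0.88 ± 0.34). Of 19 death receptors and granzyme inhibitors 1 was called higher and 6 lower, the latter including Fas, Casp8 and Tnfsf10, the ligand TRAIL, at 0.279, 0.981 and 1.57 CPM against 1.67, 2.3 and 4.53 (log2 fold change -1.44 ± 0.42, run 2 -2.13, adjusted p = 0.00433). Of 26 chemokines 3 were called higher and 9 lower, and 2 and 5 without MCA-970 W-1D and W-R. Cxcl12, a stromal chemokine, was at 53.2, 85.9 and 131 CPM against 286, 369 and 546 (log2 fold change -2.06 ± 0.37, run 2 -2.05, adjusted p = 2.39e-05). Of 28 cytokines 7 were called higher and 7 lower. Il11, an interleukin of stromal cells, was at 23, 73.7 and 424 CPM against 14.2, 35 and 50.7 (log2 fold change 2.0 ± 0.46, run 2 2.29, adjusted p = 5.00e-04), with MCA-969 W-R and W-2D at 424 and 263 CPM. Il6 was at 2.38, 5.08 and 10.4 CPM against 8.98, 13.9 and 29.9 (log2 fold change -1.51 ± 0.41, run 2 -0.76, adjusted p = 0.00224), overlapped, and was not called in run 2.

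Transcripts of the mitochondrial genome were higher in MCA-969, and nuclear genes of the same respiratory chain were not called. All 11 mitochondrially encoded genes tested were called higher (median 1.65), and the summed level of the list was 11120 to 14612 CPM against 3904 to 4969. Within run 2, 6 of 9 were called higher. mt-Co1, a subunit of cytochrome oxidase, was at 5648, 6154 and 6607 CPM against 1849, 2260.2 and 2361 (log2 fold change 1.48 ± 0.17, run 2 1.44, adjusted p = 1.84e-08). mt-Cytb, of complex III, was at 1869, 2117 and 2483 CPM against 701, 726 and 903 (log2 fold change 1.5 ± 0.16, run 2 1.54, adjusted p = 3.50e-09), and mt-Nd1, of complex I, at 1414, 1756 and 2163 against 485, 501 and 686 (log2 fold change 1.65 ± 0.16, run 2 1.36, adjusted p = 8.87e-10). The lines did not overlap for these 3. The exception was mt-Nd6, the complex I gene on the other strand of the genome, which followed the library run: it was at 125 to 214 CPM in the 6 MCA-969 tumors of the first run, 20.2 and 15 in W-1D and W-2D, and 7.94 to 17.1 in MCA-970 (log2 fold change 3.33 ± 0.48, run 2 0.42, adjusted p = 1.08e-06). Of 30 nuclear genes of the respiratory chain, a list written after values were seen, 0 were called in either direction (median 0.17). Of 31 glycolysis and hypoxia genes 3 were called higher and 1 lower. Car12 and Car9 are carbonic anhydrases of the cell surface. Car12 was at 69.1, 111 and 133 CPM against 5.37, 10.1 and 17.4 (log2 fold change 3.22 ± 0.25, run 2 3.12, adjusted p = 8.95e-12), and Car9 at 4.46, 12.1 and 16.8 against 0.528, 1.12 and 2.8 (log2 fold change 3.0 ± 0.52, run 2 2.87, adjusted p = 1.45e-05). P4ha2, a prolyl hydroxylase that matures collagen, was lower, as the fibrillar collagens were, at 36.8, 50.7 and 77.4 CPM against 235, 262 and 299 (log2 fold change -2.22 ± 0.17, run 2 -2.23, adjusted p = 1.23e-11). Ldha, lactate dehydrogenase A, was at 1003, 1181 and 1982 CPM against 865, 897 and 1117 and was not called (0.42 ± 0.15). Of 19 targets of the oxidative stress factor NRF2 1 was called higher and 3 lower, including Slc7a11, the cystine transporter, at 4.13, 8.76 and 14.9 CPM against 16.5, 22.2 and 32.4 (log2 fold change -1.28 ± 0.33, run 2 -2.0, adjusted p = 0.00130).

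RNA of other cells remained in the tumors after CD45 depletion, unevenly. Of 10 pan-leukocyte markers 1 was called higher and 9 lower, of 19 myeloid markers 0 and 16, and of 14 NK cell and ILC1 markers 0 and 12. These calls rested on MCA-970 W-1D and W-R: without both, 1 pan-leukocyte marker was called higher and 1 lower, 0 and 0 myeloid markers, and 1 and 2 of 12 NK cell and ILC1 markers. The summed pan-leukocyte level was 155 CPM in MCA-970 W-1D and 103 in W-R, 25.2 to 37 in the other 4 MCA-970 tumors and 21.8 to 40.6 in MCA-969. Lyz2, a lysozyme gene of myeloid cells, was at 2.32, 4.2 and 23.8 CPM against 5.56, 19.9 and 158, with a log2 fold change of -2.62 ± 0.68 that was not called without those 2 tumors (-0.77). Ptprc, which encodes CD45, was at 23 and 14.8 CPM in those 2 tumors, 0.508 to 1.77 in the other MCA-970 tumors and 0.402 to 2.54 in MCA-969. In bulk RNA, fewer cells of a type cannot be told apart from less RNA per cell. Of 7 MHC class II genes 0 were called higher and 5 lower, and without the 2 tumors 0 in either direction, whereas the class I counts above held without them. Ncr1 had 0 counts in all 7 tumors of letter a and was detected in all 7 tumors of letter W, at 1.94 CPM in MCA-970 W-1D, 2.57 in W-R, 0.221 in W-2D and 0.0276 to 0.181 in MCA-969. In MCA-969 W-2G and W-2D, at 0.0276 and 0.0310 CPM, it lay below the level of 3 counts, so the split by letter is uncertain there. Klra4, an NK receptor gene of the Ly49 family, did not follow the leukocyte markers: it was at 10.7 to 17.4 CPM in MCA-969 and 35.6 to 46 in every MCA-970 tumor (log2 fold change -1.66 ± 0.10, run 2 -1.36, adjusted p = 6.51e-14). Of 7 T cell markers tested 1 was called higher, Trbc2, and 3 lower, Cd28, Lck and Trbc1 (1 and 1 without MCA-970 W-1D and W-R). Trbc2, a constant segment of the T cell receptor, was at 8.69 to 26 CPM in MCA-969 and 0.184 to 0.658 in MCA-970 (log2 fold change 5.07 ± 0.28, run 2 5.34, adjusted p = 6.55e-15), while Cd3e, the signaling chain of that receptor, did not pass the count filter. Of 4 B cell markers tested 1 was called higher, Cd79a, and 3 lower, Cd79b, Ighm and Igkc (1 and 1 without those tumors). Cd79a, of the B cell receptor, was at 0.635 to 2.79 CPM against 0.244 to 0.49 (log2 fold change 1.73 ± 0.35, run 2 2.21, adjusted p = 1.15e-04).

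Of 15 endothelial markers 5 were called lower and 0 higher, and 8 lower without MCA-970 W-1D and W-R. Their summed level was 116 to 394 CPM in MCA-969, 314 and 375 in MCA-970 W-R and W-1D, and 663 to 719.8 in the other MCA-970 tumors. Pecam1, CD31 of the vessel wall, was at 17.2, 38.8 and 61.1 CPM against 21, 108 and 119 (log2 fold change -1.12 ± 0.50), not called over all tumors and called without W-1D and W-R (-1.52). Cdh5, the cadherin of endothelial junctions, was at 24.1, 48 and 70.9 CPM against 211, 242 and 252 (log2 fold change -2.27 ± 0.46, run 2 -2.26, adjusted p = 1.29e-04), and did not drop in MCA-970 W-1D and W-R as Pecam1 did. The part of endothelial cells in the lower Eng, Lama4 and Col4a1 was not tested. Of 8 pericyte markers 0 were called higher and 1 lower, of 9 Schwann cell markers 3 and 2, of 5 keratinocyte and skin markers 2 and 0, and of 3 adipocyte markers 0 and 1. The defining genes Krt5 and Krt14 of keratinocytes, Sox10 of Schwann cells and Adipoq of adipocytes did not pass the count filter. The part of such cells in the epithelial genes of MCA-969 was not tested beyond these values.

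**Figure D5:**
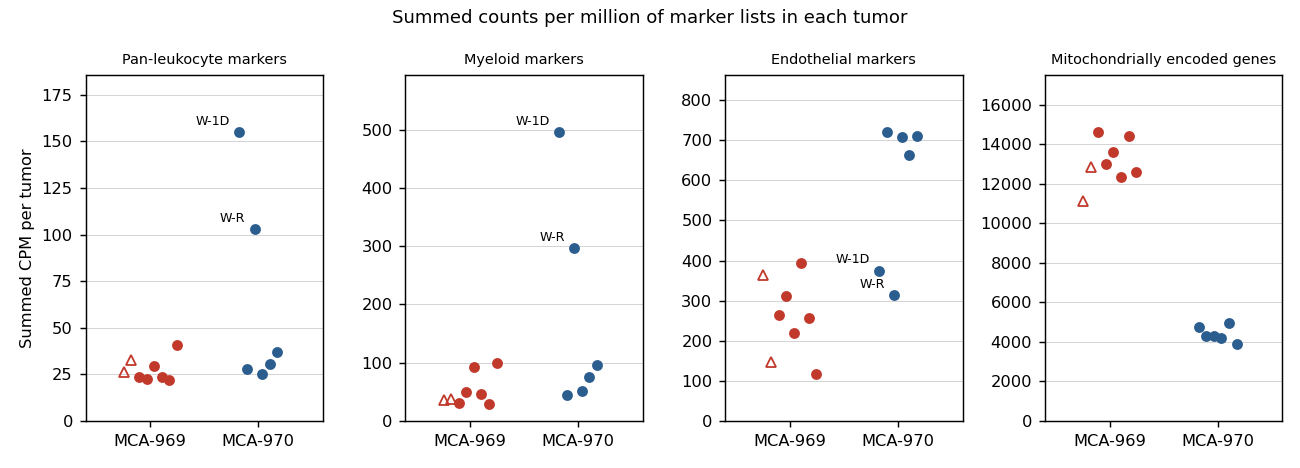
Summed CPM of marker lists of other cell types in each tumor, on linear axes that start at 0, with the mitochondrially encoded genes in the last panel and symbols as in the plot of identity genes. MCA-970 W-1D and W-R lie above all other tumors for leukocyte and myeloid markers and below the other MCA-970 tumors for endothelial markers.

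Called genes next to each other on a chromosome formed 22 runs of at least 4, of which 4 were higher in MCA-969 and 18 lower. Without MCA-970 W-1D and W-R there were 21, of which 4 were higher and 17 lower. The Ms4a genes, the MHC class II genes and the stretches from Il2rb to Mfng, Abcg2 to Tigd2 and Sfrp1 to Tcim were no longer among them. The stretches from Sis to Serpini1, Gm24299 to Gm22579 and Rtl8c to 4930502E18Rik were found only without the 2 tumors. The runs were chosen after their values were seen. The higher runs were that of Myc, those of Bnc1 and its neighbors on chromosome 7, of Prep to Lin28b on chromosome 10 and of Sfrp1 to Tcim on chromosome 8. The lower runs included class I and class II stretches of the MHC on chromosome 17, the Ifi200 genes on chromosome 1, the Trim30 genes on chromosome 7, the Ifit genes and the Ms4a genes of myeloid and B cells on chromosome 19, and Pcdhb genes on chromosome 18. Chromosome 3 held 4 lower runs. Over its 711 genes the median log2 fold change was -0.63, with 34 called higher and 196 lower. Chromosome 10 lay the other way, with a median of 0.48 and 112 of 629 genes called higher and 28 lower, as did chromosome 7 with 0.41 and 151 and 45 of 965. Over the 13359 genes counted in this way the median was 0.00, with 1118 called higher and 1332 lower.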

How the data were processed

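Per the submitters' processing notes, the authors used STAR 2.5.3a for alignment against GRCm38 and featureCounts 1.5.2 to count reads per gene. The strand setting is not given in the sources used here, and depth per tumor stands in the report. The deposited values are raw counts per gene, without normalization. A length column beside them holds no measurement and was not used. Line and code came from the titles, and the library run from blocks of library numbers.

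Counts were scaled by TMM and filtered with filterByExpr in edgeR 4.0.16 (R 4.3.3), which left 16862 genes. Some of these are not reported here. A robust quasi-likelihood fit by line used all 30 tumors, which share 1 estimate of the spread (biological coefficient of variation 0.221), and p-values were adjusted by Benjamini-Hochberg over all genes. In counts simulated from each gene's mean over all 30 tumors, 197 of 200 changed genes were recovered among 16458, with 3 others called. The planted changes all lay above the fold threshold and in a far smaller share of genes than was called here. Calls near the threshold were thus not tested by it. The members and lists were chosen with earlier results of these data known, and the lists of Myc targets and of nuclear respiratory chain genes were written after values were seen. The named genes are the 10 largest non-overlapping changes in each direction with a symbol that is not a predicted gene and at least 5 CPM in the higher line, up to 5 called members of each list, the members that define its role, and the markers with the highest level. Promoters came from RefSeq, build GRCm38.p6. Alternatives were DESeq2 1.42.0, limma-voom (limma 3.58.1), other filters and thresholds, the library run, the letter, a replicate block and leaving out each tumor. The shared codes do not pair the tumors: deviations of tumors with the same code correlated at -0.14 to 0.02. Leaving out MCA-970 W-1D and W-R together was added after seeing the data.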

Additional observations from a re-analysis of the deposited data

Results flagged for a closer look

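In 39 of 330 checks, each of 1 of 154 named genes or of the summed level of 1 of 11 marker lists in 1 line on the scale of log2(CPM + 1), a single tumor stood apart from the others of its line by Dixon's test. Chance flags about 1 in 20 groups, and genes of 1 tumor are not independent. No explanation was weighed.

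MCA-969 W-2D stood apart for 15 genes. It was low for the matrix genes Col1a1 (778 CPM), Col1a2 (977), Col3a1 (1484), Col11a1 (1.08), Postn (179), Tnc (710.5), Lama4 (39.8) and Mmp14 (421), for the contractile gene Acta2 (32.9) and for the factors Runx2 (58.5) and Pitx1 (0.340). It was high for Krt18 (557), Pvt1 (1359), Tnfrsf4 (45.7) and Ldha (1982). Without this tumor the 7 matrix genes other than Col1a1 were still called, Acta2 was not, and Col1a1 was called neither with it nor without it. MCA-969 W-1D stood apart for Met (1626), Prrx1 (557), Fam49b (91.1) and Raet1e (3.20), and MCA-969 W-R for Slc5a7 (4.81), Aplp1 (1.00), Sp7 (3.10), Hoxa10 (9.37) and Mki67 (148). MCA-969 a-1G did so for Zic4 (0.0557).

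MCA-970 W-2D stood apart for the class I and interferon genes H2-T23 (35.7), Nlrc5 (35.5) and Rsad2 (78.9), for Tnfsf10 (4.53), and at low levels for Krt8 (0.405) and Sox2 (0.515). MCA-970 a-2D did so for mt-Cytb (903), Dynap (0.0932) and Wasf3 (0.0311), the last on 1 count. MCA-970 a-1D was apart for Nt5e (139.8) and Sp7 (0.508), MCA-970 W-1D for Ibsp (2.09), W-R for Cd79a (0.244) and a-2G for Ldha (1117).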

How the results depend on the processing

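Over 33 alternatives the direction of 0 genes called in both fits was opposite. The count of genes called higher was 1755 to 1844 and lower 1687 to 1889 as single tumors were left out, against 1801 and 1811. It was 1060 and 1153 with a mean of at least 1 CPM, 855 and 817 with glmTreat, 5359 and 4968 without a threshold on the fold and 568 and 604 at a log2 fold change of at least 2, which by construction test fewer genes or move the bar. Within the second run 1469 and 1308 were called, of which 1115 and 1079 are shared with the report's calls. With a replicate block over the 5 codes that both lines share, 1337 and 1379 were called, against 1426 and 1423 for the same tumors without it, and no correlation of paired tumors exceeded 0.03, so the codes were taken as names. Of 130 called named genes 104 kept the call in every alternative that kept the call rule, and 75 in all.

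Among genes that were not called, some signs turned. Trib1, at -0.05, was at 0.057 with the run as a covariate, 0.067 in the second run, 0.60 in letter W, 0.0017 with the replicate block and 0.27 without it, and -0.40 (without MCA-969 W-R) to 0.047 as single tumors were left out. Pdgfra was at 0.10 in letter a, H2-T23 at -0.022 and Pvr at 0.016 in letter W. Of called genes 1, Ptprc, turned, from -2.73 to 0.43 in letter a, where it was not called, and the 2 tumors with leukocyte RNA are of letter W. Col1a1, Mki67 and Pecam1 crossed the threshold in several alternatives, Mki67 when any 1 of 7 tumors was left out. The causes were not tested. With 2 MCA-969 tumors in the second run, a line difference that depends on the run could be seen only where it is large.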
